A study of Petromyzon marinus with 6 samples.

Results

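2 loci counted in the lamprey brainstem were given the names of genes of the mitochondrial genome. Names were available only for loci called in the study, listed as 23 for GABA and 82 for baclofen. The other loci of the 57134 counted have no name here. MSTRG.45841 is annotated as ATP synthase F0 subunit 6 and is called ATP6 here, and MSTRG.36157 is named MT-CO2 (cytochrome c oxidase subunit II). Both names come from the GABA sheet of the study's Supplementary File 1, and both loci were chosen by the adjusted p of the comparison between GABA-treated and control samples, so that their differences between the groups are given as a description, without a test. The animals were larval sea lampreys (Petromyzon marinus, 5 to 7 years of age) from the river Ulla, and all of them, controls included, had a complete spinal cord transection. 3 GABA samples came from larvae kept in water with 500 µM GABA, and 3 Control samples from larvae kept without it. Each sample pooled the brainstems of 4 animals, taken at 29 days post-lesion by the methods of the paper, while the deposited design text gives 9 days. The mRNA was selected with poly dT and sequenced as stranded, paired-end libraries, which held from 12261374 to 14248306 counts in the Control samples and from 13266414 to 14666153 in the GABA samples. 5 named loci of nervous tissue were counted in every sample (GABRA5, CARTPT and GPR12 for neurons, VIM and SoxE1 for glia and ependymal cells). SoxE1, the lowest, had from 39.6 to 47.0 CPM (counts per 1000000 counts of the library). Only loci called in the study have names, so that finding these 5 counted was fixed in advance and does not check the tissue. 3 of these 5, GABRA5, CARTPT and VIM, are themselves loci of the GABA sheet, and their groups did not overlap. CARTPT had 417 ± 16.8 CPM in the Control samples against 334 ± 36.1 in the GABA samples (SD, n = 3), VIM 698 ± 88.5 against 541 ± 57.1, and GABRA5 66.4 ± 16.5 against 96.9 ± 6.75. GPR12 and SoxE1 overlapped between the groups. Of the neuron loci, CARTPT was thus lower and GABRA5 higher in the GABA samples. Whether the mix of cell types differed between the groups was not tested, nor was its part in the values of ATP6 and MT-CO2.

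ATP6 and MT-CO2 are proteins of the inner mitochondrial membrane. Cytochrome c oxidase passes electrons to oxygen and pumps protons across the membrane, with subunit II as the entry point for electrons from cytochrome c, and subunit 6 of ATP synthase forms part of the channel through which protons return while ATP is made. In vertebrates both proteins are encoded by the mitochondrial genome, whose genes have no introns and lie next to each other on long transcripts that are cut into polyadenylated mRNAs. Stretches of mitochondrial DNA have also been copied into the nuclear genome of many animals. The loci described here lie on contigs of the germline assembly Pmar_germline 1.0, among loci of those contigs. Whether their fragments came from mitochondrial RNA, from nuclear copies or from both was not tested. No sequence of these contigs was used here, and none is printed.

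The ATP6 locus lies on contig PIZI01001208.1 from 26626 to 27124 on the minus strand, as 1 exon block of 499 bp. The MT-CO2 locus lies on contig PIZI01000090.1 from 1376312 to 1377670, also on the minus strand, as 1 exon block of 1359 bp. Loci with 1 block were common, with 22587 loci or 39.5% of the table, and 3 of the 23 loci of the GABA sheet were of this kind. Here blocks were counted as listed, before overlapping blocks of a locus were merged. Both loci stood high in level among loci of this structure. Per length, MT-CO2 had 281 CPM per kb as the mean of the 6 samples and ranked 1 among the 22587 loci with 1 block. ATP6 had 91.7 CPM per kb and ranked 11. The median of the 5361 loci with 1 block that passed the count filter was 1.69 CPM per kb, so that MT-CO2 stood 167-fold and ATP6 54.4-fold above it. Over all loci, most of which have several blocks, MT-CO2 ranked 86 and ATP6 350 by CPM per kb, where the highest locus had 8263. Within the GABA sheet, MT-CO2 ranked 1 and ATP6 5 of the 23 loci by the same measure. By CPM without regard to length, MT-CO2 ranked 336 and ATP6 4985 over all loci. The levels used all 6 samples. They were not independent of the choice of the loci, since DESeq2 gave an adjusted p to only 5990 loci, by a minimum mean count. A locus with a mean count of 441 (MSTRG.36155) had none. The choice thus favoured high counts, and part of the height of both loci above the median was fixed by it.

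**Figure D1:**
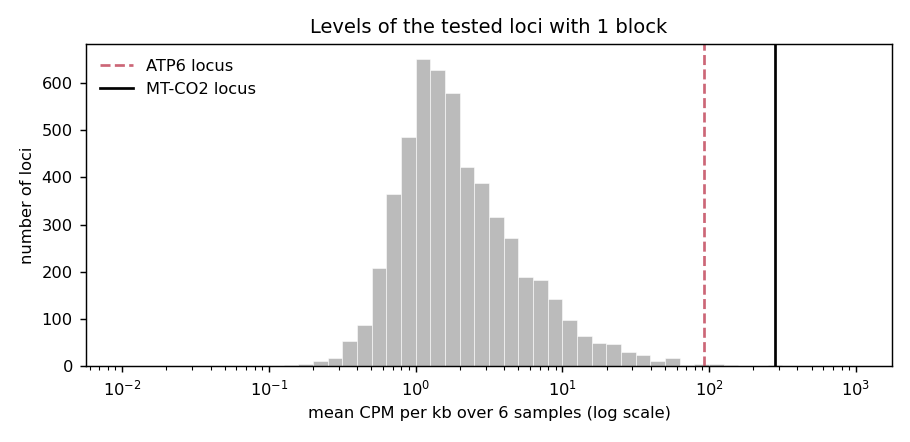
Number of loci (vertical axis) by mean CPM per kb over the 6 samples (horizontal axis, log scale), for the 5361 tested loci with 1 exon block. The dashed line marks the ATP6 locus at 91.7 and the solid line the MT-CO2 locus at 281, both to the right of nearly all of the grey bars.

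At the ATP6 locus, Control replicates 1, 2 and 3 held 673, 770 and 644 counts, and GABA replicates 1, 2 and 3 held 541, 447 and 548. Scaled to library size by TMM, the Control levels were 47.7, 62.1 and 54.6 CPM and the GABA levels 36.8, 32.1 and 41.1 CPM. Control replicate 2 was the highest and GABA replicate 2 the lowest, and the groups did not overlap, with 6.57 CPM between the lowest Control and the highest GABA sample. The means were 54.8 ± 7.19 CPM (SD, n = 3) in the Control samples and 36.7 ± 4.52 CPM (SD, n = 3) in the GABA samples. The edgeR estimate of the log2 fold change was −0.58 (standard error 0.11), the second lowest of the 23 loci of the sheet. Replicates of a group had a coefficient of variation of 13.1% in the Control samples and 12.3% in the GABA samples, against a counting error of 3.60% to 4.73% of a single sample's value.

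At the MT-CO2 locus, the Control samples held 5341, 5605 and 5510 counts and the GABA samples 5402, 4368 and 4139. The TMM-scaled levels were 379, 452 and 467 CPM in the 3 Control samples, against 368, 314 and 311 CPM in the GABA samples. The groups did not overlap, but replicate 1 of each group lay close together, with 10.8 CPM between Control replicate 1 and GABA replicate 1, and the other 4 samples stood further apart. The means were 433 ± 47.2 CPM (SD, n = 3) and 331 ± 32.1 CPM (SD, n = 3), and the edgeR log2 fold change was −0.39 ± 0.09 (SE). The coefficient of variation was 10.9% in the Control samples and 9.71% in the GABA samples, where the counting error was between 1.34% and 1.55%. Of the 24300 loci tested, every GABA sample was below every Control sample at 6.37%, and both members were among these under each of the 3 scalings compared (TMM, DESeq2's size factors and library size). Since the contrast chose the members, nothing is read from that count. In bulk samples such as these, fewer cells that contain the transcript and less of it per cell cannot be told apart.

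**Figure D2:**
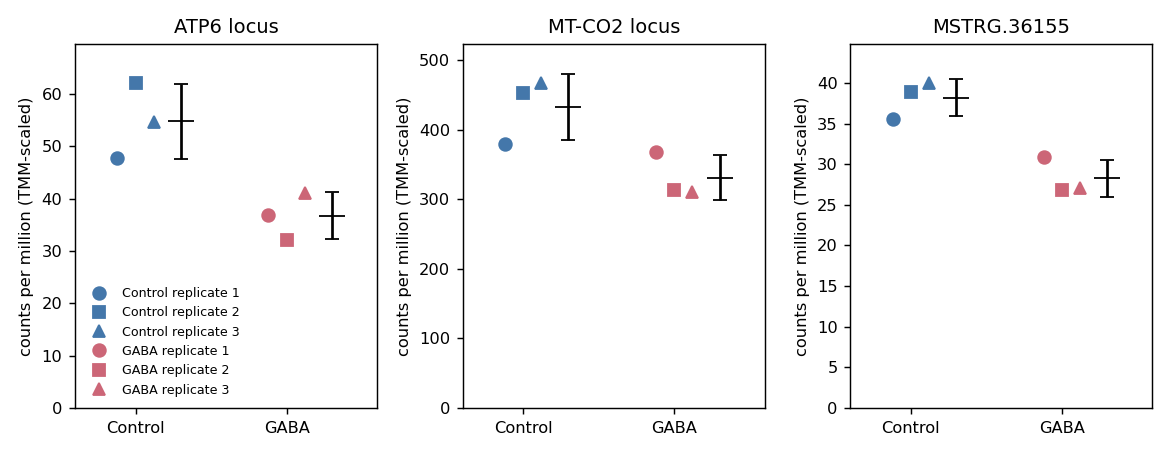
CPM (TMM-scaled, vertical axes starting at 0) of the ATP6 locus, the MT-CO2 locus and MSTRG.36155 in 3 Control (blue) and 3 GABA (red) samples. Each symbol is 1 sample of 4 pooled brainstems, and the black bars give mean and SD. The GABA samples lie below the Control samples in each panel, with 368 against 379 CPM between the nearest MT-CO2 samples.

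The loci were called in the study by DESeq2, and the same test run here with its default settings called 23 loci (0.384% of the 5990 with an adjusted p), which were the 23 of the sheet. By p, ATP6 stood at place 2 and MT-CO2 at place 12 among them. DESeq2 gave log2 fold changes of −0.59 (standard error 0.13) for ATP6 and −0.40 (standard error 0.10) for MT-CO2, at mean normalized counts of 606 and 5057. The locus just inside the threshold had a log2 fold change of 0.58 at a mean normalized count of 486, and the one just outside had −0.30 at 13959. edgeR's quasi-likelihood test called 0 of the 24300 loci tested (0%) after Benjamini-Hochberg adjustment, with 6.55% at an unadjusted p under 0.05. Of the 12260 loci with a mean count of at least 100, 24 had a lower edgeR fold change than ATP6 and 82 a lower one than MT-CO2. The median log2 fold change of these loci was −0.02. Both members were chosen by this contrast, so that nothing is read from their ranks by fold change or their places by p.

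ATP6 and MT-CO2 were also compared with each other within each sample. Per 100 counts of MT-CO2, the ATP6 locus had 12.6, 13.7 and 11.7 counts in the 3 Control samples, against 10.01, 10.2 and 13.2 in the GABA samples. GABA replicate 3 lay within the range of the Control samples and the other GABA samples below it, so that the groups overlapped. The coefficient of variation over the 6 samples was 13.02%, against a counting error of 3.84% to 4.97% of the ratio. Per length of their blocks (499 and 1359 bp), the ATP6 locus stood at 27.3% to 37.4% of the level of MT-CO2. Whether each block holds the whole of the gene it is named for, and nothing else, was not tested.

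On its contig, ATP6 stood nearly alone. 7 other loci were counted on PIZI01001208.1, 5 of them with 1 block and 4 on the minus strand, and none had more than 15 counts in any sample. The ATP6 locus held between 94.6% and 97.2% of the counts of the contig. Its level per length was 84.0-fold that of the next locus, MSTRG.45838 (11504 to 11899, minus strand), which had 1.09 CPM per kb and 4 to 8 counts per sample. The counts of the 7 loci together were 22, 22 and 24 in the 3 Control samples, against 19, 20 and 31 in the GABA samples, or 1.79 ± 0.237 and 1.69 ± 0.560 CPM (SD, n = 3). The groups overlapped (log2 difference −0.13, two-sided exact permutation test, p = 0.7), where 3 samples against 3 cannot give a p under 0.1. 1 of the 7, MSTRG.45837 (7690 to 8577, plus strand), passed the count filter. It had 9, 7 and 13 counts in the 3 Control samples, against 12, 12 and 15 in the GABA samples, with a log2 fold change of 0.29 (edgeR, SE 0.39, Benjamini-Hochberg adjusted p = 0.921). This estimate dropped to 0.16 or 0.12 when Control replicate 1 or 2 was left out, to 0.14 when GABA replicate 3 was, and stood at 0.62 when Control replicate 3 was. The nearest locus on the lower side was MSTRG.45840, 10260 bp away, with at most 2 counts in a sample. None of these loci has a name in Supplementary File 1.

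The locus MSTRG.45842 (26693 to 27350, plus strand) lies opposite the ATP6 locus and overlaps 432 of its 499 bp. It had between 2 and 7 counts per sample. Summed over the 6 samples, it held 25 counts against 3623 on the ATP6 strand, or 0.685% (exact 95% interval 0.444% to 1.01%, for counting error only). Nearly all fragments of this stretch were thus on the minus strand. The counting by the authors used strand, and a low count on the opposite strand can also come from incomplete strand marking, which was not tested.

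**Figure D3:**
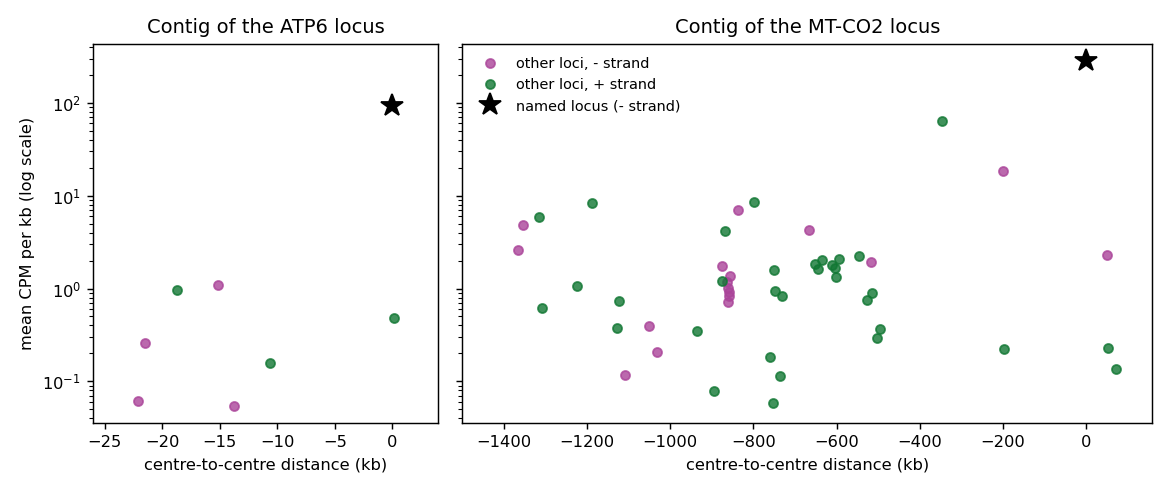
Mean CPM per kb (vertical axis, log scale) of the loci on the contig of ATP6 (left) and of MT-CO2 (right). The horizontal axis gives the distance in kb between the centre of each locus and that of the named locus. Plus-strand loci are green, minus-strand loci purple and the named loci stars. MSTRG.36155 and MSTRG.36156, which both span MT-CO2, are thus drawn at −199 and −198 kb. The stars stand at 91.7 and 281, above every other locus of their contigs, and 3 loci without counts are left out.

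The contig of MT-CO2 was longer and held 53 other loci, 25 of them with 1 block and 19 on the minus strand. 3 of them had no count, 30 had a mean count under 10, and 23 passed the count filter. MT-CO2 held 30.1% to 35.0% of the counts of the contig in the Control samples and 23.2% to 29.5% in the GABA samples. The locus with the next highest level per length was MSTRG.36154 (973576 to 1086501, plus strand, 13 listed blocks or 9 when merged). It had 63.8 CPM per kb, so that MT-CO2 stood 4.40-fold above it. The median of the tested neighbours was 2.09 CPM per kb. MSTRG.36154 had 569 CPM in the Control samples and 540 CPM in the GABA samples, with a log2 fold change of −0.08 (edgeR, SE 0.13, Benjamini-Hochberg adjusted p = 0.935).

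Of the 23 tested neighbours of MT-CO2, edgeR's quasi-likelihood test called 0 after Benjamini-Hochberg adjustment, and the smallest adjusted p was 0.575. The same edgeR test called 0 of all 24300 loci, members included, with 0.504 as the smallest adjusted p. Nothing is therefore read from the 0 among the neighbours. DESeq2 with its default settings gave an adjusted p to 2 of the 23 (MSTRG.36133 and MSTRG.36154) and called neither, with 0.0998 as the smaller. Without independent filtering it gave one to 50 of the 53 neighbours and called 0, with 0.272 as the smallest. 12 neighbours had a negative and 11 a positive log2 fold change, with a median of −0.01, where the median of all loci tested was 0.01. 3 lower and 1 higher neighbours (17.4% together) had an unadjusted p under 0.05, against 6.55% of all loci tested (3.47% lower and 3.08% higher). 2 of the 23 lay below the Control samples in every GABA sample, and 1 lay above, where 6.37% and 5.98% of all loci did. The summed counts of the 53 loci gave 920 ± 108 CPM (SD, n = 3) in the Control samples and 912 ± 104 CPM (SD, n = 3) in the GABA samples, and the groups overlapped (log2 difference −0.01, two-sided exact permutation test, p = 0.8). Against this sum, the log2 ratio of MT-CO2 was −1.22, −0.89 and −1.16 in the 3 Control samples, against −1.26, −1.40 and −1.73 in the GABA samples. The ratio did not overlap between the groups, and its mean was lower by 0.37 in the GABA samples. MSTRG.36154 held much of this sum, with 569 CPM in the Control samples. Against MSTRG.36154 alone, the log2 ratio of MT-CO2 was −0.54, −0.14 and −0.50 in the 3 Control samples. It was −0.41, −0.61 and −1.07 in the GABA samples, and the groups overlapped. MT-CO2 was chosen by this contrast, so that nothing is read from either ratio. For ATP6, the log2 ratio to the other loci of its contig was 4.94, 5.13 and 4.75 in the 3 Control samples, against 4.83, 4.48 and 4.14 in the GABA samples, and the groups overlapped. Those other loci summed to only 19 to 31 counts per sample, some of them from MSTRG.45842 opposite the ATP6 locus. Nothing is read from this ratio either.

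1 neighbour, MSTRG.36155, had a sample pattern close to that of MT-CO2. It lies on the same strand from 977960 to 1378113 and spans the MT-CO2 locus without sharing a base with it. Its largest block (977960 to 979535) has 1576 bp and lies 396.776 kb from the MT-CO2 locus, and its block nearest to MT-CO2 (1377900 to 1378113) has 214 bp and begins after a gap of 229 bp. The 3 blocks between these, with overlapping blocks merged, have 9, 6 and 17 bp. The deposited counts do not say which block a fragment fell on. MSTRG.36155 had 502, 483 and 472 counts in the 3 Control samples, against 454, 374 and 361 in the GABA samples.

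The TMM-scaled levels of MSTRG.36155 were 35.6, 38.9 and 40.0 CPM in the 3 Control samples, against 30.9, 26.9 and 27.1 CPM in the GABA samples. As at MT-CO2, Control replicate 3 was the highest, GABA replicate 1 the highest of its group, and the groups did not overlap. The means were 38.2 ± 2.30 and 28.3 ± 2.27 CPM (SD, n = 3), and the edgeR log2 fold change was −0.43 ± 0.09 (SE). In the edgeR fit, the unadjusted p was 0.000652 and the Benjamini-Hochberg adjusted p 0.575, so that the difference did not pass the threshold. Per 100 counts of MT-CO2, MSTRG.36155 had 9.40, 8.62 and 8.57 counts in the 3 Control samples, against 8.40, 8.56 and 8.72 in the GABA samples. This ratio varied by 4.04% over the 6 samples, less than the counting error of 4.67% to 5.49% of each ratio, and the groups overlapped. MSTRG.36155 has no name in Supplementary File 1, and whether its fragments come from the same transcripts as those of MT-CO2 was not tested.

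**Figure D4:**
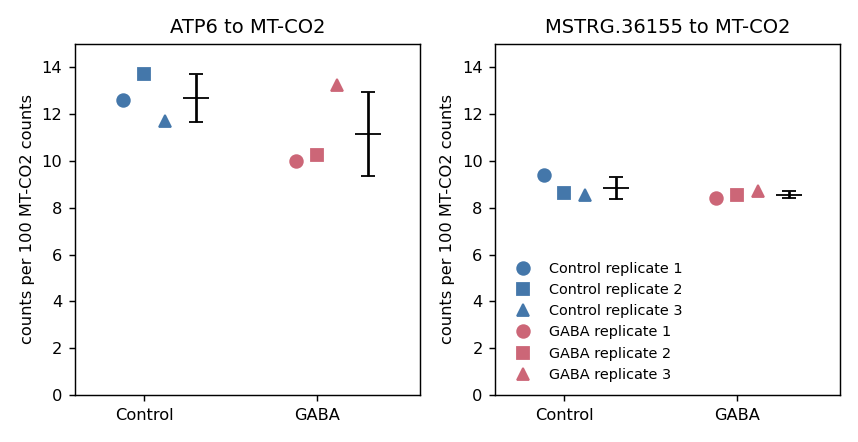
Counts of the ATP6 locus (left) and of MSTRG.36155 (right) per 100 counts of the MT-CO2 locus, in 3 Control (blue) and 3 GABA (red) samples, with mean and SD in black and axes starting at 0. The ATP6 ratio runs from 10.01 to 13.7, and the ratio of MSTRG.36155 from 8.40 to 9.40.

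A further locus joined the same 2 stretches of the contig on the opposite strand. MSTRG.36156 (979020 to 1378681, plus strand) has a block of 100 bp opposite the largest block of MSTRG.36155, a block of 66 bp inside the MT-CO2 locus and a block of 176 bp beyond it. It had 0 to 3 counts per sample. Summed over the samples, it held 6 counts against 30365 at MT-CO2, or 0.0198% (exact 95% interval 0.00725% to 0.0430%, for counting error only), although it covers a small part of the locus. The nearest locus beyond MT-CO2, MSTRG.36158, begins 510 bp from it and had 0.531 CPM in the Control samples and 0.641 CPM in the GABA samples.

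The third neighbour by level per length, MSTRG.36133 (546226 to 611309, plus strand), was higher in each GABA sample than in each Control sample. It had 72.5, 61.0 and 82.8 CPM in the 3 Control samples, against 110, 95.5 and 85.3 CPM in the GABA samples, and its edgeR log2 fold change was 0.43 ± 0.12 (SE). Its Benjamini-Hochberg adjusted p of 0.718 from edgeR did not pass the threshold. Neither did the one from DESeq2 with its default settings, where the smaller of the 2 given to neighbours of MT-CO2 was 0.0998. The neighbours of MT-CO2 thus held loci with estimates in either direction.

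**Figure D5:**
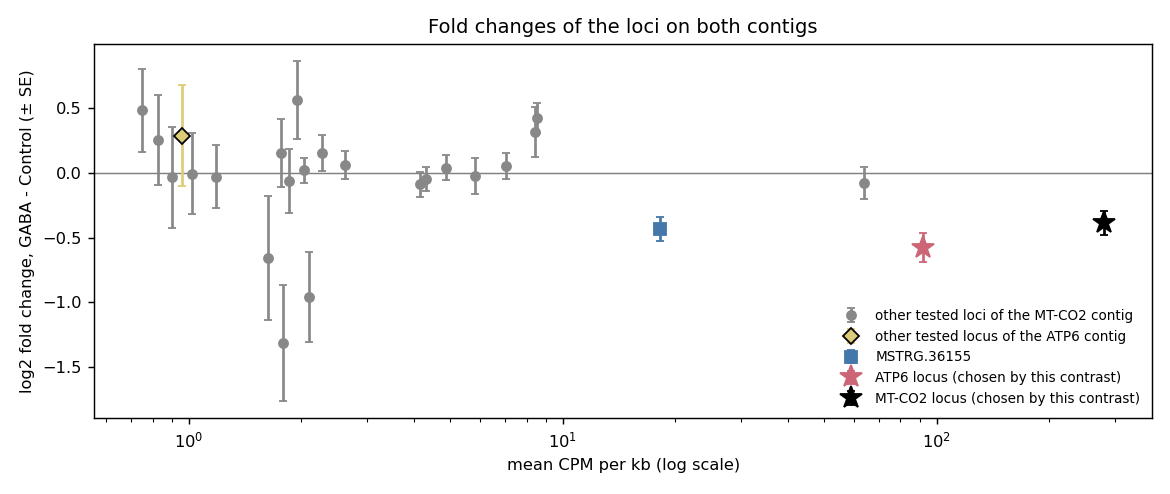
Log2 fold change from edgeR, GABA minus Control, with its standard error (vertical axis) against mean CPM per kb (horizontal axis, log scale) for the tested loci on both contigs. ATP6 (−0.58), MT-CO2 (−0.39) and MSTRG.36155 (−0.43) lie below 0, while the 22 other neighbours of MT-CO2 (grey) and the tested neighbour of ATP6 (yellow) lie on either side of it.

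Sample patterns like those of the members were found on other contigs. Likeness was measured as Pearson's r of log2 CPM over the 6 samples, among 12259 loci with a mean count of at least 100, and is given as a description. With 6 samples and so many loci, high values are common. 223 loci (1.82%) had an r over 0.9 with ATP6 and 472 (3.85%) with MT-CO2. ATP6 and MT-CO2 had an r of 0.859 with each other, which put MT-CO2 at place 405 in the order for ATP6. Between their deviations from the group means, r was 0.446. For MSTRG.36155 and MT-CO2 these values were 0.975 and 0.974, at place 46 in the order for MT-CO2.

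The loci closest to ATP6 over the whole table were MSTRG.5120 (r of 0.995) and MSTRG.41168 (0.990), which have no name. Among the 68 loci with a name, the second HESB locus, a transcription factor gene of the Hes family listed for baclofen, came first (0.988). It was followed by SCRG1 (0.984) and AP2S1 (0.980), a subunit of the AP-2 adaptor complex of clathrin-coated vesicles. SCRG1 had 46.3 ± 5.60 CPM in the Control samples and 32.2 ± 3.28 CPM in the GABA samples (SD, n = 3). SCRG1 and AP2S1 stand on the GABA sheet and were chosen by the same contrast. Between deviations from the group means, r with ATP6 was 0.957 for this HESB locus, 0.922 for SCRG1 and 0.915 for AP2S1. These loci were picked by their r over the same 6 samples, which favours a high r of deviations, so that nothing is read from it.

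The loci closest to MT-CO2 were MSTRG.20605 (0.995) and MSTRG.34697 (0.995), again without a name. Among the named loci, one annotated as a hypothetical protein came first (0.982), before PTGES3 (0.974), which encodes a co-chaperone of Hsp90, and ARL3 (0.955), a small GTPase of ciliary trafficking. PTGES3 had 405 ± 31.5 CPM in the Control samples and 326 ± 16.2 CPM in the GABA samples (SD, n = 3), and PTGES3 and ARL3 were also chosen by this contrast.

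Of a list of mitochondrial genes and names, 3 loci in Supplementary File 1 matched, ATP6 and MT-CO2 on the GABA sheet and SQOR on the baclofen sheet. Loci of other subunits of the respiratory chain could not be named here. SQOR (contig PIZI01000031.1, 1102796 to 1194265) encodes sulfide:quinone oxidoreductase, a mitochondrial enzyme that passes electrons from sulfide to ubiquinone and so feeds the same chain. It had 56.6, 57.3 and 78.4 CPM in the 3 Control samples, against 87.9, 54.5 and 59.1 CPM in the GABA samples. The groups overlapped, with GABA replicate 1 and Control replicate 3 high. The log2 fold change was 0.07 (edgeR, SE 0.17, Benjamini-Hochberg adjusted p = 0.963), so that the difference was smaller than its error. Neither ATP6 nor MT-CO2 stands on the baclofen sheet, and 0 of its 82 loci lie on either of the contigs. Beside the members, the contigs hold only 60 of the 57134 loci counted, so that nothing is read from this 0.

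9 other loci with 1 block had a level per length above that of ATP6, and 0 of them have a name in Supplementary File 1. Their log2 fold changes ran from −0.18 to 0.07, and 7 of the 9 were negative, where the median of all loci tested was 0.01. 1 of these 9 loci had an unadjusted p under 0.05 in edgeR's quasi-likelihood test, against 6.55% of the 24300 loci tested. 0 of the 9 passed after Benjamini-Hochberg adjustment, as did 0 of all loci tested. These loci were picked by level after the values were seen.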

How the data were processed

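After trimming with fastp, the authors mapped the reads to Pmar_germline 1.0 by 2-pass STAR (at most 10 alignments per read). StringTie gave the loci, and featureCounts the fragments on each, counted by strand with both ends mapped and chimeras left out. Versions are not given in the sources used here. The deposited counts are whole numbers without normalization for 57134 loci (the entries of 2 loci ran over a line end and were rejoined). All 6 columns matched a sample. The methods do not say that fragments with several alignments were counted, so that fragments shared by near-identical copies may be left out or placed at a copy, and the values of both members are uncertain in this respect.

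The fit across all loci was the two-sided quasi-likelihood test of edgeR 4.0.16 (R 4.3.3) on the 24300 loci kept by filterByExpr, with TMM scaling and no term but the condition. A call needed a Benjamini-Hochberg adjusted p under 0.05. CPM are counts per 1000000 of the TMM-scaled library size, and CPM per kb divides them by the summed length of the exon blocks. Standard errors are the fold change divided by the square root of the F statistic. Likeness used log2 CPM with a prior count of 2. Single values were compared by a two-sided exact permutation test over the samples. Nothing beyond the pooled brainstems says that samples came from separate experiments, so that p-values measure the spread between these pools.

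The alternatives were DESeq2 1.42.0 with and without independent filtering, limma-voom (limma 3.58.1), scaling by DESeq2's size factors or by library size, other count filters (none, or mean counts from 100 up), a block for the replicate number and each sample left out. The fits were tested on simulated data. Python 3.11.15 with matplotlib 3.10.9 drew the figures, and pandas 2.3.3 and scipy 1.17.1 served for tables and intervals. The members and lists were chosen with earlier results of these data known. The rule for named loci took the members, the neighbours that overlap them, lie nearest or rank among the 3 highest per length on each contig, any neighbour called, the mitochondrial names in Supplementary File 1, and the 3 named and 2 other loci most like each member. RefSeq's gene table does not hold these StringTie identifiers, and loci without a name in Supplementary File 1 are given by identifier.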

Additional observations from a re-analysis of the deposited data

How the results depend on the processing

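Over 14 alternatives, the log2 fold change of ATP6 ran from −0.67 to −0.48 and that of MT-CO2 from −0.48 to −0.33, and both extremes of each came from leaving out 1 sample. Their log2 ratios to the other loci of their contigs, GABA minus Control, ran from −0.62 to −0.28 and from −0.47 to −0.24 with 1 sample left out. Both loci were chosen by this contrast on the same samples, which favours a steady sign, so that nothing is read from these ranges. The other loci on the contig of ATP6 together held only 19 to 31 counts per sample. 0 neighbours were called under any alternative that gave them an adjusted p, including one chosen after seeing the data that summed MSTRG.36155 and MT-CO2. For the neighbours of MT-CO2, the smallest adjusted p was 0.0621 in edgeR with no count filter. DESeq2 with independent filtering gave one to 2 of the 23 tested neighbours of MT-CO2 and to 0 of those of ATP6, and a mean count of at least 100 left no neighbour of ATP6 to test. The adjusted p of MSTRG.36155 ran from 0.0769 (no count filter, edgeR) to 0.999 (edgeR's quasi-likelihood test without GABA replicate 2), and DESeq2 with independent filtering left it undefined. At an unadjusted p under 0.05, the neighbours of MT-CO2 numbered 2 with a mean count of at least 100 and 6 with no count filter, where filterByExpr gave 4. Over all loci, the 0 calls became 58 with no count filter, 23 with DESeq2 and 7 with DESeq2 without independent filtering, of which 2, 2 and 1 were members. The cause was not tested.

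The samples share replicate numbers without pairing in the labels. The correlations of deviations from the group means were −0.24, 0.13 and −0.13 for the same-numbered samples. For differently numbered samples they ran from −0.19 to 0.29. With 3 samples per group, such correlations cannot exclude a pairing. The fit with the replicate block called 0 loci.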
